A study of Mus musculus with 101 samples.

Results

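The genes described here are the matrix proteases and their inhibitors: every gene of the 2 deposited count tables whose symbol is that of a matrix metalloproteinase (Mmp), an ADAMTS protease (Adamts), an ADAMTS-like protein (Adamtsl) or a tissue inhibitor of metalloproteinases (Timp), with Adamtsl2 left out. They were chosen by symbol alone and number 50 of 24475 genes: 23 Mmp, 19 Adamts, 4 Adamtsl and 4 Timp genes. The study measured mRNA by sequencing in subcutaneous and epididymal white fat of male mice, all of strain C57BL/6NTac, and asked what more or less Activin E, the protein made from Inhbe, does to fat. In 1 experiment, wild-type (WT) mice on chow received an AAV8 vector that directs expression to the liver and carried either GFP, as the control, or mouse Inhbe (mInhbe), with 10 libraries of each depot and vector. In the other, WT mice and Inhbe knockout (KO) mice, which carried no vector, ate chow or a high-fat diet (HFD): 8 WT and 7 KO libraries on chow in each depot, 8 KO libraries on HFD in each depot, and 8 epididymal and 7 subcutaneous WT libraries on HFD. The sources used here do not give the age of the mice, the time on diet or after the vector, or how the knockout allele was made. The vector is directed to the liver, in mice that keep their own Inhbe.

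The extracellular matrix of fat is a mesh of collagens, laminins, fibrillins and proteoglycans around each adipocyte, and it is cut and rebuilt as fat cells enlarge or shrink. Metalloproteinases are made as inactive proenzymes and cleave collagens, elastin, proteoglycans and other matrix proteins once activated. ADAMTS enzymes cleave proteoglycans such as versican and aggrecan or trim the ends of procollagens, and ADAMTS-like proteins share their ancillary domains without a catalytic domain. The 4 TIMP proteins bind the active sites of metalloproteinases, and TIMP3, which stays bound to the matrix, also inhibits ADAMTS enzymes. Since activation and inhibition act on the proteins, the mRNA levels given here do not measure protease activity.

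Each library held 12970509 to 20170746 estimated counts. Levels are given as CPM, counts scaled to a library total of 1000000, and 3 counts come to 0.149 to 0.231 CPM. Inhbe was at 0 in all GFP libraries and at 14.8 ± 14.6 CPM (SD, n = 10) in subcutaneous and 2.98 ± 4.61 CPM (SD, n = 10) in epididymal fat after mInhbe AAV. It was near 0 in WT fat without vector and so cannot check the KO labels. Adipoq and Plin1, which mark adipocytes, were high in all 12 groups. Several libraries stood apart in markers of other tissue: WT chow subcutaneous libraries 6, 7 and 8 and KO chow subcutaneous library 5 carried more mast cell, macrophage and fibroblast transcript than the other subcutaneous chow libraries of the knockout experiment, and they are called below the libraries rich in mast cell transcript. WT chow subcutaneous library 1 and WT HFD subcutaneous libraries 1, 2 and 4 carried little lymph node transcript. WT HFD epididymal libraries 4 and 5 carried liver transcript. WT HFD subcutaneous library 6 and KO HFD subcutaneous library 2 carried less of it (liver markers summed to 198 and 387 CPM). GFP epididymal library 7 held little epididymis and testis transcript (2.93 CPM). GFP epididymal library 8 held skeletal muscle and brown fat transcript (2565 and 1042 CPM). GFP subcutaneous libraries 5 and 8 held skeletal muscle transcript as well (2183 and 1523 CPM), and no alternative left them out. Epididymal libraries differed widely in transcripts of epididymis and testis. Some of the results that rest on such libraries are given with and without them below. No comparison between depots was run with a covariate for epididymis and testis transcript. The libraries of each group are labelled as biological replicates. In bulk tissue, fewer cells of a type and less RNA per cell cannot be told apart.

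Of the Mmp genes, 10 lie side by side on mouse chromosome 9, between positions 7272514 and 7699585 (a span of 427 kb in GRCm38.p6), and 4 of them, Mmp3, Mmp7, Mmp12 and Mmp13, gave some of the widest ranges across the 12 groups. The 250 bases before a transcription start of these 4 genes, and of Timp1 and Timp4, the inhibitors that moved in opposite directions on HFD in epididymal fat of WT mice, are printed because the results below turn on these genes. They are RefSeq sequences of GRCm38.p6, given 5′ to 3′ on the gene's strand and ending at the base before the start. Mmp12 and Mmp7 have 2 annotated starts each, and the windows shown are those of the downstream start of Mmp12 and the upstream start of Mmp7, which hold the AP-1 site that the window of the other start lacks. Capitals mark 3 short motifs searched on both strands: the AP-1 site TGAGTCA or TGACTCA, the ETS-type core AGGAAG or CTTCCT, and the TATA box TATAAA or TTTATA.
Mmp13 (chr9:7272264-7272513, plus strand): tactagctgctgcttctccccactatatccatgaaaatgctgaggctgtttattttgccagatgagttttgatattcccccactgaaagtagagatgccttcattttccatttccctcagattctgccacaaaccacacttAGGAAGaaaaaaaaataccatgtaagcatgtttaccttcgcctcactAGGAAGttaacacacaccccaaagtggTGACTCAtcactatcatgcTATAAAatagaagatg
Mmp12 (chr9:7347124-7347373, plus strand): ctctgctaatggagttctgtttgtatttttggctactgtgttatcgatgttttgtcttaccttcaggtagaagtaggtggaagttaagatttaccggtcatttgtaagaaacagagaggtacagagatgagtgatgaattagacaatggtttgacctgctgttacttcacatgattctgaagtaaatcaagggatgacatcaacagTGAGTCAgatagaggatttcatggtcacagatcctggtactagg
Mmp3 (chr9:7445572-7445821, plus strand): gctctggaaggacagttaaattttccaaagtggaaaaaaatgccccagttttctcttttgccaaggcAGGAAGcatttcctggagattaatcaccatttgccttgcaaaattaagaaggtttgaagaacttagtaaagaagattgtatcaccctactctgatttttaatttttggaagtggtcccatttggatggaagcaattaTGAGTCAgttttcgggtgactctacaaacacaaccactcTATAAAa
Mmp7 (chr9:7691840-7692089, plus strand): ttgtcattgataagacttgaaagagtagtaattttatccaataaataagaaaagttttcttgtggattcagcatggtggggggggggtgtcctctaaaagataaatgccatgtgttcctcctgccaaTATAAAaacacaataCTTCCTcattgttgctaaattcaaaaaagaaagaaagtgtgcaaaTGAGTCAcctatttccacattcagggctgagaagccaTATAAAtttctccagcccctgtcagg
Timp1 (chrX:20869916-20870165, plus strand): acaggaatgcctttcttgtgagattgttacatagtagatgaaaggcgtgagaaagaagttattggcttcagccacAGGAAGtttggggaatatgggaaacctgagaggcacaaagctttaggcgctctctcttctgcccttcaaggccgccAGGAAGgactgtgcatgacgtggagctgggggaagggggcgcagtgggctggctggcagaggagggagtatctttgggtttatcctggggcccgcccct
Timp4 (chr6:115252206-115252455, minus strand): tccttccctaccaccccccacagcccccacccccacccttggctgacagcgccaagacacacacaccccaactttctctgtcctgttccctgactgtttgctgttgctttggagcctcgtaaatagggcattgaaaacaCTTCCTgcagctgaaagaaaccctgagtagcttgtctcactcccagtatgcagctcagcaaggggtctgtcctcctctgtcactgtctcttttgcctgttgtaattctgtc

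An AP-1 motif was found before a start of Mmp13, Mmp12, Mmp3 and Mmp7, with its first base 35, 44, 46 and 63 bases before that start respectively, and not in the windows printed for Timp1 and Timp4. Of the 35 members with an entry in the RefSeq promoter table, 7 held it in the 250 bases before a start, all 7 in the chromosome 9 cluster (Mmp1a, Mmp1b, Mmp3, Mmp7, Mmp10, Mmp12 and Mmp13), against 4.46% of all 32851 windows of that length. The TATA box letters were found in windows of 9 members against 12.4% of all windows, and the ETS-type core in windows of 13 members against 29.5% of all windows. The palindromes TTGCGCAA and GTCTAGAC, the strict forms of a C/EBP and a SMAD site, were found in the windows of 0 members, and in 0.164% and 0.167% of all windows. The motifs did not overlap each other in the printed windows, and a match is a description of the letters only.

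Levels ranged over several orders of magnitude between members. Per kb of exon, and averaged over the 12 groups, Timp2 was the most abundant member at 132 CPM per kb, followed by Timp3 at 67.3, the gelatinase gene Mmp2 at 43.2, and the versican-cleaving Adamts5 at 28.8. Next came Mmp19 at 23.7, Timp4 at 22.1, and the stromelysin gene Mmp3 at 21.3. They were followed by the macrophage elastase gene Mmp12 at 17.8, the procollagen-trimming Adamts2 at 16.0 and Mmp14, which encodes a membrane-anchored activator of proMMP2, at 13.1. That order is of averages: Mmp12 ran from 0.477 CPM per kb in the subcutaneous fat of the GFP group to 163 in the epididymal fat of WT mice on HFD, where its mean was second only to that of Timp2 at 209. In all, 16 members had a mean of at least 10 CPM in every group, 10 reached 100 CPM in at least 1 group, and 8 stayed under 1 CPM in every group. The low-count filter kept 43 members in at least 1 of 18 comparisons and 37 in all 18. Mmp1a, Mmp1b, Mmp10, Mmp20, Mmp21, Mmp24 and Adamts18 were tested in none.

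Among comparisons within a depot, the largest shifts came with HFD in the epididymal fat of WT mice. There Mmp12, Mmp13, Mmp3 and Timp1 were more than 10-fold higher on HFD and Timp4 was 5.30-fold lower. Of 42 members tested, 14 were higher and 10 lower, a share near the background. Of all genes tested, 28.9% were higher and 25.2% lower (54.1% called), and the median log2 fold change was 0.06 over members and -0.02 over all genes. All adjusted p-values here and below are Benjamini-Hochberg values over all genes tested from edgeR's quasi-likelihood test, called under 0.05, and errors of log2 fold changes are standard errors.

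Mmp12, whose product cleaves elastin, was the member with the largest fold change among those that were higher. Its lowest, median and highest values were 5.73, 26.7 and 47.2 CPM in WT mice on chow and 575, 1009 and 1893 CPM on HFD (log2 fold change 5.53 ± 0.47, adjusted p = 4.05e-11). All 8 HFD libraries lay far above all 8 chow libraries. The collagenase gene Mmp13 stood at 0.248, 0.453 and 0.606 CPM on chow and 2.39, 5.31 and 8.58 CPM on HFD (log2 fold change 3.72 ± 0.37, adjusted p = 7.7e-10), and the groups did not overlap, although the chow values sit near the depth limit. Mmp3, whose product cleaves proteoglycans and activates other proenzymes, had lowest, median and highest values of 1.75, 3.20 and 4.87 CPM on chow and 21.8, 35.2 and 46.4 CPM on HFD (log2 fold change 3.49 ± 0.29, adjusted p = 2.11e-11). Again no chow library reached the lowest HFD library. For Mmp27 the groups overlapped, with 0.212, 0.518 and 0.740 CPM on chow and 0.711, 1.46 and 2.68 CPM on HFD (log2 fold change 1.61 ± 0.36, adjusted p = 0.000422). These 4 genes belong to the chromosome 9 cluster of 10 genes, of which the low-count filter kept 5. Of those 5, 4 were higher and 0 lower. Mmp13 and Mmp27 were low on chow and passed the filter mainly through the HFD libraries. The cluster count is therefore partly set by the filter and is description only. Of the other Mmp genes 4 of 11 were higher and 3 lower.

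Mmp2, Mmp14 and Adamts2 rose as well, from higher levels on chow. Mmp2, which encodes a gelatinase, had lowest, median and highest values of 65.7, 79.1 and 118 CPM on chow and 187, 216 and 285 CPM on HFD (log2 fold change 1.52 ± 0.13, adjusted p = 2.72e-11). Mmp14, encoding its membrane-anchored activator, stood at 48.0, 62.9 and 71.4 CPM on chow and 122, 145 and 161 CPM on HFD (log2 fold change 1.30 ± 0.12, adjusted p = 2.88e-10). Adamts2, which encodes a procollagen N-proteinase, stood at 124, 149 and 198 CPM on chow and 241, 286 and 339 CPM on HFD (log2 fold change 0.93 ± 0.15, adjusted p = 3.37e-06). In all 3 genes every HFD library lay above every chow library. Mmp19 (1.37 ± 0.15), Mmp11 (1.74 ± 0.21), Adamts14 (1.01 ± 0.14) and Adamts7 (0.94 ± 0.16) rose as well on the log2 scale, and Adamts14 encodes another procollagen N-proteinase. Members that fell included the gelatinase gene Mmp9 (-2.31 ± 0.32), Adamtsl4 (-0.88 ± 0.16), Adamts1 (-0.71 ± 0.14) and Adamts9 (-0.53 ± 0.11), the last 2 of which encode versican-cleaving enzymes.

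The 4 inhibitors split. Timp1 had lowest, median and highest values of 2.42, 3.54 and 4.38 CPM on chow and 23.3, 35.4 and 76.9 CPM on HFD (log2 fold change 3.59 ± 0.25, adjusted p = 3.19e-13), and Timp2 rose by 0.31 ± 0.12 on the log2 scale (adjusted p = 0.033). Timp4 moved the other way, from 96.6, 212 and 329.7 CPM on chow to 22.5, 41.9 and 60.0 CPM on HFD (log2 fold change -2.40 ± 0.28, adjusted p = 2.5e-08). Timp3 stood at 624, 716 and 856 CPM on chow and 264, 353 and 399 CPM on HFD (log2 fold change -0.97 ± 0.13, adjusted p = 1.62e-07). Timp1, Timp3 and Timp4 did not overlap between the diets. Per kb of exon, the mean levels of Timp1 and Timp3 on HFD were 44.6 and 42.2 CPM, both far below Timp2 at 209.

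Markers of other cells moved with these genes. The summed level of 9 macrophage markers was 893 to 1492 CPM in WT epididymal libraries on chow and 5294 to 7695 CPM on HFD, with 8 of 9 markers higher and 1 (Cd163) lower. The sum of 7 adipocyte markers was 14931 to 25284 CPM on chow and 11944 to 18927 CPM on HFD, with 1 higher and 5 lower. The summed fibroblast markers were 3666 to 5451 CPM on chow and 7565 to 10509 CPM on HFD. Mast cell markers were higher in 5 of 6. The mesothelial markers fell in 5 of 6, and of the fibroblast markers 4 of 8 were higher and 1 lower. The part of these cells in the results was not tested.

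**Figure D1:**
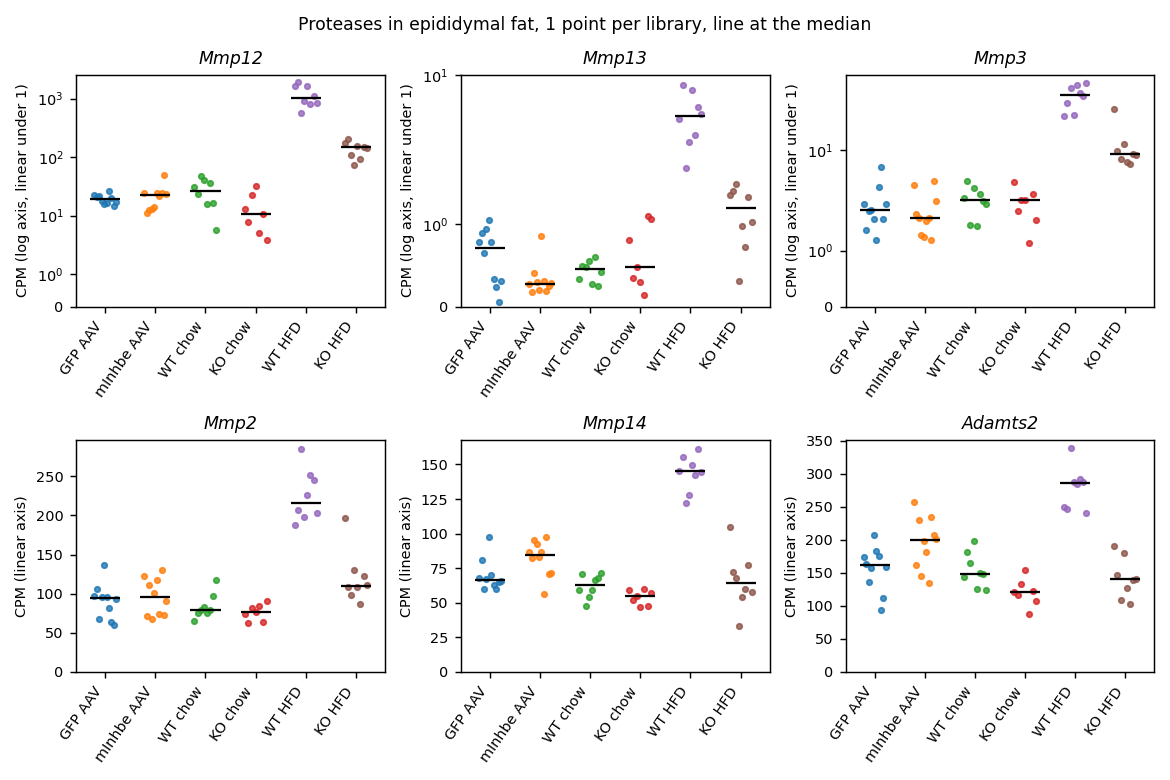
CPM of Mmp12, Mmp13 and Mmp3 (log axis) and of Mmp2, Mmp14 and Adamts2 (linear axis) in each epididymal library of the 6 groups, 1 point per library, with a line at each group's median. WT libraries on HFD are the highest group for all 6 genes, and for Mmp12, Mmp3 and Mmp2 the median of KO libraries on HFD lies between that group and the chow groups.

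In epididymal fat, KO mice on HFD had less Mmp12, Mmp13, Mmp3, Mmp14 and Timp1 and more Timp4 than WT mice on HFD. Of 42 members tested, 17 were lower and 5 higher. The share of all genes called was 37.2%, with 17% higher and 20.2% lower, and the median log2 fold change was -0.37 over members and 0.01 over all genes. This comparison shares its WT HFD libraries with the diet comparison above, so the 2 are not independent. By family, 7 of 16 Mmp genes, 6 of 18 Adamts genes, 2 of 4 Adamtsl genes and 2 of 4 Timp genes were lower.

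Mmp12 had lowest, median and highest values of 72.5, 146 and 204 CPM in KO libraries on HFD, all below the lowest WT library on HFD (log2 fold change -2.92 ± 0.41, adjusted p = 1.55e-06). Mmp13 stood at 0.308, 1.28 and 1.85 CPM (log2 fold change -2.00 ± 0.34, adjusted p = 1.87e-05), also with no overlap. Mmp3 stood at 7.15, 9.01 and 25.3 CPM (log2 fold change -1.48 ± 0.27, adjusted p = 4.67e-05). KO library 1 reached into the WT range and the other 7 did not. Mmp2, at 86.7, 109 and 197 CPM, overlapped with WT through the same library (log2 fold change -0.72 ± 0.13, adjusted p = 3.1e-05). Mmp14 stood at 33.5, 64.1 and 105 CPM (log2 fold change -0.96 ± 0.12, adjusted p = 2.25e-07) and Adamts2 at 102, 140.2 and 191 CPM (log2 fold change -0.78 ± 0.15, adjusted p = 7.27e-05), and for both genes every KO library lay below every WT library. Mmp27, at 0.463, 0.607 and 1.32 CPM, overlapped with WT (log2 fold change -0.94 ± 0.35, adjusted p = 0.0358). The procollagen N-proteinase gene Adamts14 fell by 0.90 ± 0.14 on the log2 scale and Adamtsl5 by 0.71 ± 0.15. Among the 5 members that were higher were Mmp28 (1.49 ± 0.19), the membrane-type Mmp15 (0.54 ± 0.16) and Adamts9 (0.44 ± 0.11).

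The inhibitors split here too. Timp4 had lowest, median and highest values of 155, 189.7 and 348 CPM in KO mice on HFD, every one above the highest WT library on HFD, which was at 60.0 CPM (log2 fold change 2.56 ± 0.29, adjusted p = 2.65e-08). Timp1 stood at 5.09, 8.18 and 15.2 CPM in KO mice, all below the lowest WT library at 23.3 CPM (log2 fold change -1.97 ± 0.23, adjusted p = 4.97e-08). Timp3 stood at 196, 430.0 and 544 CPM and overlapped with WT (log2 fold change 0.49 ± 0.13, adjusted p = 0.00235). KO library 4 was below all WT libraries and the other 7 above all of them. Timp2 fell by 0.45 ± 0.12 on the log2 scale (adjusted p = 0.00402). The plot of the 4 inhibitors by library shows the crossing of Timp1 and Timp4.

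**Figure D2:**
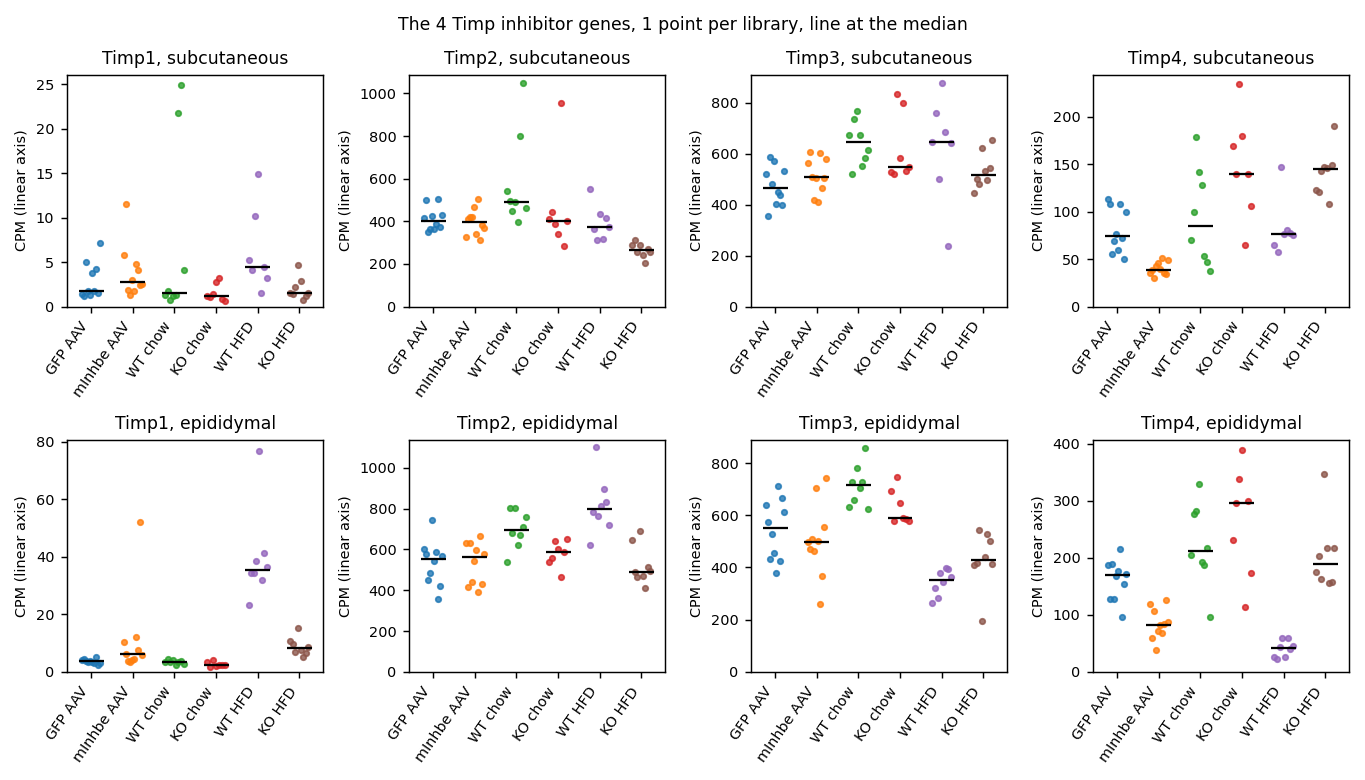
CPM of Timp1, Timp2, Timp3 and Timp4 (linear axes) in each library of the 12 groups, with subcutaneous and epididymal groups side by side, 1 point per library and a line at each group's median. In epididymal fat, WT libraries on HFD are highest for Timp1 and lowest for Timp4, and KO libraries on HFD are back in the chow range for Timp4.

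Macrophage markers summed to 1015 to 2348 CPM in KO epididymal libraries on HFD, all below the WT range on HFD of 5294 to 7695 CPM, and 8 of 9 were lower. Adipocyte markers summed to 19945 to 25108 CPM against 11944 to 18927 CPM, and 6 of 7 were higher. Fibroblast markers summed to 3673 to 6287 CPM in KO and 7565 to 10509 CPM in WT mice, without overlap, with 4 of 8 lower, and mast cell markers were lower in 5 of 6. In a plot of the 51 epididymal libraries pooled over groups, Mmp12 was high where the macrophage sum was high. Timp4 tended to be high where the adipocyte sum was high, with wide scatter. No association was computed, over all libraries or within groups. The part of cell content in these results was not tested. Without WT HFD libraries 4 and 5, which held liver transcript, 19 members were called in place of 22.

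**Figure D3:**
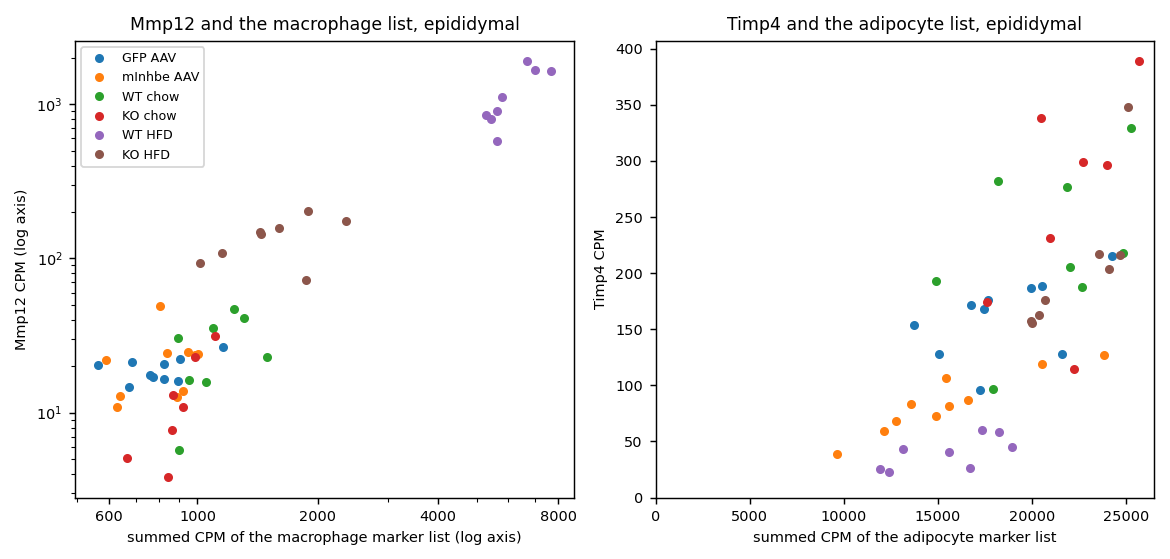
Mmp12 CPM against the summed CPM of 9 macrophage markers (both axes log) and Timp4 CPM against the summed CPM of 7 adipocyte markers (both axes linear) in each epididymal library, coloured by group. WT HFD libraries sit apart at the top right of the first panel, and in the second they lie low on the Timp4 axis, where some mInhbe libraries also lie.

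The response to diet in epididymal fat differed between KO and WT mice for several members. With HFD in KO epididymal fat, 12 of 42 members were higher and 7 lower. Over all genes tested, 38.7% passed, 24.7% as higher and 13.9% as lower, and the median log2 fold change was -0.10 over members and 0.00 over all genes. Members that rose included Mmp12 (3.56 ± 0.45), Mmp3 (2.12 ± 0.30), Timp1 (1.99 ± 0.25), Mmp11 (1.33 ± 0.22), Mmp19 (1.05 ± 0.16) and Mmp2 (0.90 ± 0.13). Those that fell were Mmp9 (-1.46 ± 0.31), Adamts19 (-1.25 ± 0.37), Adamts6 (-0.88 ± 0.27), Adamtsl1 (-0.79 ± 0.32), Adamts1 (-0.60 ± 0.15), Adamtsl4 (-0.58 ± 0.17) and Timp3 (-0.32 ± 0.13). Timp4 had lowest, median and highest values of 114, 296 and 389 CPM in KO mice on chow, and its diet difference in KO mice was -0.11 ± 0.28 (adjusted p = 0.776). That of Timp2 was 0.11 ± 0.13 (adjusted p = 0.522). The interaction of genotype and diet, the KO difference on HFD minus the KO difference on chow, tests whether the diet responses differ, and 3 of 42 members passed as higher and 7 as lower. As background, 7.83% of all genes were higher and 8.7% lower (16.5% called), and the median log2 fold change was -0.18 over members and 0.03 over all genes. Timp4 (log2 fold change 2.30 ± 0.39, adjusted p = 0.000135), Mmp28 (log2 fold change 1.19 ± 0.27, adjusted p = 0.00203) and Timp3 (log2 fold change 0.64 ± 0.18, adjusted p = 0.0125) were positive. Mmp13 (-2.53 ± 0.50), Mmp12 (-1.96 ± 0.56), Timp1 (-1.60 ± 0.33), Mmp3 (-1.37 ± 0.39), Adamts14 (-0.81 ± 0.21), Mmp14 (-0.78 ± 0.17) and Mmp2 (-0.62 ± 0.18) were negative. Timp2 did not pass, at -0.20 ± 0.18 (adjusted p = 0.52).

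On chow, KO and WT epididymal fat gave no called member: 0 of 42 passed. Of all genes tested, 0.173% were higher and 0.485% lower (0.658% called), and the median log2 fold change was -0.12 over members and -0.02 over all genes. DESeq2 also called 0, and 4 members had an unadjusted p under 0.05 in edgeR's test, all 4 lower in KO. The 3 members with the smallest p were Adamts10 (-0.39 ± 0.15), Adamts4 (-0.49 ± 0.21) and Mmp12 (-0.96 ± 0.41). Timp1 was at 1.78, 2.42 and 4.16 CPM in KO mice (difference -0.37 ± 0.25), Timp4 differed by 0.26 ± 0.28, Timp3 by -0.15 ± 0.13 and Timp2 by -0.25 ± 0.13. Genes outside the families did pass on chow: Thbs2 fell by 1.06 ± 0.24 on the log2 scale and Adam12 rose by 0.66 ± 0.13.

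Other genes of matrix turnover were called in epididymal fat as well. They come from 5 lists chosen for their roles, but with earlier results of these data known, so their counts here and below are description only. With HFD in WT mice 33 of 55 were higher and 7 lower, against 28.9% and 25.2% of all genes. Among these, 9 of 12 cathepsins and other matrix-cleaving enzymes were higher and 2 lower (median log2 fold change 1.00). Of the ADAM proteases 6 of 9 were higher and 1 lower. Of the procollagen processing helpers and crosslinkers 6 of 7 were higher and 0 lower. Among matrix substrates 5 of 13 were higher and 0 lower, and among activators, anchors and other inhibitors 7 of 14 were higher and 4 lower. The collagen-degrading cathepsin gene Ctsk rose by 3.65 ± 0.15, Adam8 by 4.88 ± 0.25 and Ctss by 3.43 ± 0.19 on the log2 scale, while Pcsk6 fell by 1.40 ± 0.22, Dpp4 by 1.18 ± 0.19 and Reck, which encodes a membrane-anchored metalloproteinase inhibitor, by 0.68 ± 0.13. In KO against WT mice on HFD 34 of 55 were lower, against 20.2% of all genes. These were 7 of 12 cathepsins and other enzymes, 6 of 9 ADAM proteases, 7 of 7 processing helpers and crosslinkers, 7 of 13 substrates and 7 of 14 activators, anchors and other inhibitors. The only gene of these lists that was higher was Adam12, by 0.71 ± 0.13. Ctsk fell by 2.05 ± 0.14, Ctss by 1.95 ± 0.18 and Ctsl by 1.37 ± 0.11 on the log2 scale.

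**Figure D4:**
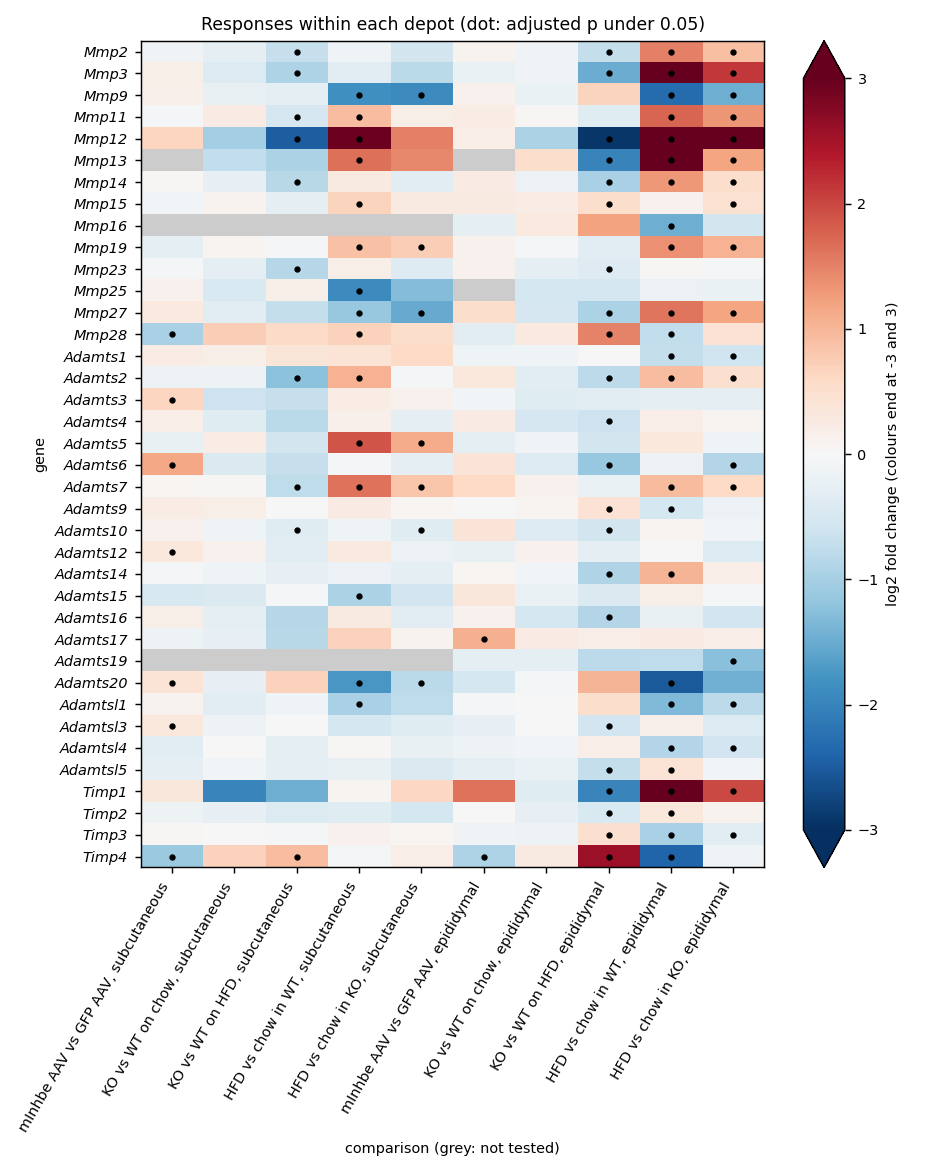
Heatmap of log2 fold changes for the 38 members called in at least 1 of 10 comparisons within a depot (rows) across those comparisons (columns), with colours ending at -3 and 3, dots on called values and grey for genes not tested. Epididymal diet and genotype columns on HFD hold most dots, and the 2 chow genotype columns hold none.

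HFD also changed members in the subcutaneous fat of WT mice, among them Adamts5, Adamts7 and Adamts20. Of 40 tested, 9 were higher and 6 lower. The share of all genes called was 44.1%, with 22.6% higher and 21.5% lower, and the median log2 fold change was 0.07 over members and -0.03 over all genes. These counts turned on the libraries used: 13 were higher and 3 lower without those rich in mast cell transcript, and 5 and 6 without those with little lymph node transcript. Adamts5, encoding a versican- and aggrecan-cleaving enzyme, had lowest, median and highest values of 139, 213 and 269 CPM on chow and 233, 746 and 909 CPM on HFD (log2 fold change 1.89 ± 0.20, adjusted p = 1.69e-08), with some overlap. Adamts7, whose product cleaves the matrix protein COMP, stood at 2.61, 3.68 and 5.57 CPM on chow and 5.71, 9.14 and 16.4 CPM on HFD (log2 fold change 1.62 ± 0.19, adjusted p = 6.18e-08), without overlap. Adamts20, a relative of Adamts9, fell from 1.53, 2.23 and 4.96 CPM to 0.267, 0.664 and 1.37 CPM (log2 fold change -1.75 ± 0.30, adjusted p = 2.63e-05), also without overlap. Mmp11 (0.92 ± 0.12), Adamts2 (1.05 ± 0.14), Mmp19 (0.87 ± 0.21) and Mmp12 (2.95 ± 0.75) rose. Mmp9 (-1.84 ± 0.28), the leukocyte-expressed Mmp25 (-1.92 ± 0.50), Adamtsl1 (-0.98 ± 0.29), Mmp27 (-1.13 ± 0.41) and Adamts15 (-0.96 ± 0.39) fell. Without the 4 WT libraries that held little lymph node transcript, Mmp12 was at 1.82 (adjusted p = 0.0654).

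None of the 4 Timp genes passed in this comparison, with Timp1 at 0.09 ± 0.61, Timp2 at -0.37 ± 0.21, Timp3 at 0.12 ± 0.18 and Timp4 at -0.04 ± 0.28. The value for Timp1 turned on a few chow libraries: WT chow libraries 6 and 7 held 21.8 and 24.9 CPM and library 8 held 4.16, while the other 5 held 0.752 to 1.71 CPM. Mast cell markers summed to 193, 302 and 183 CPM in these 3 libraries and to 60.3 to 87.1 in the other 5. Macrophage markers summed to 1873, 1904 and 1228 CPM against 515 to 789, fibroblast markers to 10104, 13869.9 and 6322 against 4157 to 5607, and adipocyte markers to 13609, 13127 and 16366 against 21739.5 to 23982. Library 6 also held 73.6 CPM of Mmp12. The part of these cells in the levels was not tested. Without these 3 libraries and KO chow library 5, an alternative chosen after the data were seen, Timp1 was 2.46 higher on HFD on the log2 scale (adjusted p = 0.000304).

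Among mice on HFD, subcutaneous fat of KO mice had less Adamts2 and less of several Mmp transcripts than that of WT mice. Of 40 members, 9 were lower and 1 higher. Over all genes tested, 18.9% passed, 7.32% as higher and 11.6% as lower, and the median log2 fold change was -0.40 over members and -0.01 over all genes. Adamts2 stood at 152, 209 and 266 CPM in WT and 65.8, 79.0 and 91.4 CPM in KO mice (log2 fold change -1.24 ± 0.14, adjusted p = 2.43e-07), without overlap. Mmp12 stood at 38.2, 72.1 and 309.9 CPM in WT and 10.7, 14.2 and 23.8 CPM in KO mice (log2 fold change -2.47 ± 0.73, adjusted p = 0.0175), and Mmp14 at 64.9, 77.1 and 147 CPM and 38.9, 45.3 and 56.9 CPM (log2 fold change -0.83 ± 0.23, adjusted p = 0.0119). Neither overlapped. Mmp23 (-0.85 ± 0.22), Adamts7 (-0.75 ± 0.19), Mmp11 (-0.50 ± 0.12), Mmp3 (-0.92 ± 0.30), Mmp2 (-0.70 ± 0.25) and Adamts10 (-0.37 ± 0.10) were lower too. Timp4 was the 1 member that was higher (log2 fold change 0.94 ± 0.28, adjusted p = 0.0192), from 57.2, 76.6 and 147 CPM in WT to 108, 145 and 189.9 CPM in KO mice, with overlap. Timp1 was at -1.45 ± 0.64, Timp2 at -0.42 ± 0.20 and Timp3 at -0.05 ± 0.18, none called.

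The subcutaneous count depended on the libraries used. WT HFD libraries 3 and 6 held 2.26 and 7.69 CPM of Adamts12, whose product like that of Adamts7 cleaves COMP, against 55.8 to 92.0 in the other 5 WT libraries. Without both, 17 members were called in the KO comparison. Without the WT libraries with little lymph node transcript 6 were, with Timp4 at 0.75 (adjusted p = 0.108). Macrophage markers summed to 812 to 1803 CPM in WT and 449 to 581 CPM in KO libraries, with 6 of 9 lower, and fibroblast markers to 4296 to 11996 CPM and 3065 to 4198 CPM, with 3 of 8 lower. Their part was not tested. In the wider lists 25 of 55 genes were lower, against 11.6% of all genes. Among them, 7 of 12 cathepsins and other enzymes, 7 of 13 substrates, 5 of 14 activators, anchors and other inhibitors and 4 of 7 processing helpers and crosslinkers were lower, and none was higher. Pcolce2, encoding an enhancer of procollagen C-proteinase, fell by 2.21 ± 0.24, Htra3 by 1.65 ± 0.17 and Ctsl by 1.38 ± 0.11 on the log2 scale.

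With HFD in KO subcutaneous fat, 3 of 40 members were higher and 4 lower. As background, 11.7% of all genes were higher and 9.05% lower (20.7% called), and the median log2 fold change was -0.29 over members and -0.04 over all genes. Adamts5 (1.11 ± 0.20), Adamts7 (0.84 ± 0.19) and Mmp19 (0.75 ± 0.21) rose, and Mmp9 (-1.90 ± 0.28), Mmp27 (-1.52 ± 0.42), Adamts20 (-0.82 ± 0.29) and Adamts10 (-0.37 ± 0.10) fell. Of the inhibitors Timp4 was at 0.19 ± 0.28, Timp3 at 0.05 ± 0.18, Timp1 at 0.61 ± 0.68 and Timp2 at -0.53 ± 0.20, none called. The genotype by diet interaction passed for Adamts2 (log2 fold change -1.10 ± 0.20, adjusted p = 0.00174) and Mmp11 (log2 fold change -0.75 ± 0.18, adjusted p = 0.0172), that is for 2 of 40 members as lower and 0 as higher. Of all genes tested, 0.387% were higher and 1.75% lower (2.14% called), and the median log2 fold change was -0.23 over members and 0.01 over all genes. None of the 4 Timp genes passed it (Timp1 0.52 ± 0.91, Timp2 -0.16 ± 0.29, Timp3 -0.07 ± 0.25 and Timp4 0.24 ± 0.39). For Adamts5 and Adamts7, whose diet difference in KO mice was smaller, the interaction was -0.77 ± 0.28 (adjusted p = 0.169) and -0.78 ± 0.27 (adjusted p = 0.128). On chow, 0 of 40 members passed between KO and WT subcutaneous fat. The share of all genes called was 0.253%, with 0.134% higher and 0.12% lower, and the median log2 fold change was -0.23 over members and -0.02 over all genes. DESeq2 also called 0, and 3 members had an unadjusted p under 0.05 in edgeR's test. Of those 3, Timp1 was at -1.98 ± 0.67 (adjusted p = 0.352), Timp4 at 0.70 ± 0.28 (adjusted p = 0.527) and Mmp28 at 0.75 ± 0.22 (adjusted p = 0.203). The Timp1 difference changed sign without the libraries rich in mast cell transcript. Timp2 was at -0.26 ± 0.21 and Timp3 at 0.02 ± 0.18.

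mInhbe AAV on chow changed few members, and Timp4 was lower in both depots. In subcutaneous fat 5 of 39 members were higher and 2 lower. Over all genes tested, 27.2% passed, 15.8% as higher and 11.4% as lower, and the median log2 fold change was 0.04 over members and -0.00 over all genes. Timp4 had lowest, median and highest values of 50.5, 74.1 and 114 CPM in the GFP group and 30.4, 38.8 and 51.6 CPM in the mInhbe group (log2 fold change -1.12 ± 0.17, adjusted p = 0.000202). The groups overlapped by a narrow margin. Adamts6 rose (log2 fold change 1.15 ± 0.18, adjusted p = 0.000312), from 1.32, 3.78 and 5.44 CPM to 5.33, 8.92 and 12.0 CPM. Mmp28 fell (log2 fold change -0.97 ± 0.25, adjusted p = 0.00741). Adamts3, encoding the third procollagen N-proteinase (0.64 ± 0.20), Adamts20 (0.42 ± 0.14), Adamts12 (0.33 ± 0.10) and Adamtsl3 (0.33 ± 0.11) rose, but with a lymph node covariate neither these 4 nor Mmp28 passed, leaving 2 members. Without GFP subcutaneous library 2, 2 of the called members named here lost their call, and which they were is not given here. Timp1 (0.33 ± 0.38), Timp2 (-0.16 ± 0.10) and Timp3 (0.03 ± 0.09) were not called. Adipocyte markers summed to 19983 to 25072 CPM in the GFP and 15535 to 23513 CPM in the mInhbe group, with 4 of 7 lower. Their part in the Timp4 difference was not tested.

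In epididymal fat 1 member was higher and 1 lower of 40. As background, 0.761% of all genes were higher and 0.404% lower (1.16% called), and the median log2 fold change was 0.08 over members and 0.00 over all genes. Timp4 stood at 95.8, 169.8 and 215 CPM in the GFP group and 38.8, 82.7 and 127 CPM in the mInhbe group (log2 fold change -0.93 ± 0.19, adjusted p = 0.0097), with overlap. Adipocyte markers summed to 13744 to 24276 CPM in the GFP and 9667 to 23856 CPM in the mInhbe group, and 0 of 7 were called lower. Their part was not tested. Adamts17 rose (log2 fold change 1.06 ± 0.25, adjusted p = 0.0397) at levels near 1 CPM, and was not called without the low-count filter, with the replicate number in the fit, or without GFP libraries 7 and 8. Timp1 was 1.62 ± 0.44 higher but not called (adjusted p = 0.0922): mInhbe library 9 held 51.9 CPM and the next highest 12.2, and without that library the difference was 0.87. Timp2 (0.00 ± 0.12) and Timp3 (-0.11 ± 0.15) were not called. Between depots, the mInhbe response differed for 1 of 42 members, Adamts17 (log2 fold change 1.20 ± 0.33, adjusted p = 0.0193). Of all genes tested, 4.09% were higher and 9.41% lower (13.5% called). Adamts17 was not called with the replicate number in the fit or without GFP subcutaneous library 2 and epididymal libraries 7 and 8, and DESeq2 called 1 other member, as lower. For Timp4 the difference of responses was 0.18 ± 0.25 (adjusted p = 0.655), and for Timp1 1.28 ± 0.60, Timp2 0.15 ± 0.16 and Timp3 -0.15 ± 0.18, none called. Of the 55 genes of the wider lists, 10 were higher and 2 lower in subcutaneous fat, against 15.8% and 11.4% of all genes. By list, 3 of 13 matrix substrates, 3 of 9 ADAM proteases and 3 of 12 cathepsins and other enzymes were higher. Bgn, the proteoglycan biglycan (0.64 ± 0.10), Adam10 (0.68 ± 0.12) and Dpp4 (0.68 ± 0.16) rose, and the cathepsin gene Ctsb (-0.46 ± 0.08) fell. Bgn (0.70 ± 0.11) was the 1 gene of these lists called in epididymal fat.

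The depots themselves differed in many members. In the GFP group 16 of 42 members were higher and 12 lower in epididymal fat. The share of all genes called was 64.5%, with 35.8% higher and 28.7% lower, and the median log2 fold change was 0.15 over members and 0.06 over all genes. In WT mice on chow 14 of 43 were higher and 8 lower. Over all genes tested, 43.1% passed, 24.5% as higher and 18.7% as lower, and the median log2 fold change was 0.29 over members and 0.05 over all genes. In WT mice on HFD 15 of 43 were higher and 12 lower. As background, 21.8% of all genes were higher and 18.9% lower (40.8% called), and the median log2 fold change was 0.32 over members and -0.01 over all genes. Mmp7, encoding matrilysin, showed the widest gap, with 0, 0.157 and 0.363 CPM in subcutaneous and 14.8, 27.8 and 49.6 CPM in epididymal fat of the GFP group (log2 fold change 7.38 ± 0.46, adjusted p = 5.18e-17). The subcutaneous values lie around the level of 3 counts (0.149 to 0.231 CPM), so the size of that fold change rests on the floor. In WT mice on chow Mmp7 stood at 0, 41.2 and 77.7 CPM in epididymal fat, with libraries 2 and 4 at 0. Epididymis and testis markers summed to 3.65 and 1.24 CPM in those 2 libraries and to 4.90 to 4723 in the other 6. Markers of keratinocytes and mammary epithelium summed to 23.9 and 29.0 CPM and to 69.5 to 215. In GFP epididymal library 7 the 2 sums were also low, at 2.93 and 35.5 CPM, yet no GFP epididymal library held less than 14.8 CPM of Mmp7. Adamts8 (3.14 ± 0.26 in the GFP group and 2.52 ± 0.56 in WT mice on chow) and Adamts3 (1.84 ± 0.20 and 1.45 ± 0.27) were also higher in epididymal fat, as was Adamts19 (4.31 ± 0.45 and 2.73 ± 0.54). In the GFP group so were Mmp16 (2.95 ± 0.27) and Adamtsl1 (1.09 ± 0.14), and in WT mice on chow Adamts1 (0.92 ± 0.19), Mmp23 (0.85 ± 0.18) and Mmp28 (0.92 ± 0.20). Mmp3 (-4.35 ± 0.29 and -4.92 ± 0.33), Mmp25 (-3.85 ± 0.30 and -3.08 ± 0.46), Mmp2 (-1.05 ± 0.14 and -1.44 ± 0.20) and Mmp27 (-1.46 ± 0.23 and -2.69 ± 0.40) were lower. So were Mmp15 (-0.78 ± 0.17) and Adamts20 (-1.09 ± 0.24) in the GFP group and Mmp8 (-2.54 ± 0.70) and Adamts13 (-1.26 ± 0.39) in WT mice on chow. Mmp7, Mmp16 and Adamts19 passed the low-count filter in no comparison within subcutaneous fat, and Mmp8 in none within epididymal fat. These genes entered the depot comparisons through the depot where they were higher, so their depot calls are description only. Subcutaneous Mmp3 stood at 33.0, 47.5 and 99.3 CPM in the GFP group, against 1.27, 2.50 and 6.77 CPM in epididymal fat. Lymph node markers summed to 634 to 1212 CPM in the subcutaneous and 47.1 to 143 CPM in the epididymal GFP libraries, and mesothelial markers to 1.95 to 12.9 CPM and 167 to 319 CPM. Smooth muscle markers summed to 426 to 640.0 CPM and 811 to 6157 CPM, and epididymis and testis markers to 0 to 0.177 CPM and 2.93 to 11102 CPM. Their part was not tested.

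Of the inhibitors, Timp4 (0.91 ± 0.18) and Timp2 (0.29 ± 0.11) were higher in epididymal fat in the GFP group, with Timp1 at 0.28 ± 0.43 and Timp3 at 0.12 ± 0.13, not called. In WT mice on chow Timp1 (-0.89 ± 0.46), Timp2 (0.31 ± 0.16) and Timp3 (0.19 ± 0.15) were not called either. Without the subcutaneous libraries rich in mast cell transcript, Timp1 changed sign and was called as higher in epididymal fat, as given in the last section. With the replicate number in the fit its sign changed too. On HFD Timp1 (2.56 ± 0.49), Timp2 (0.93 ± 0.17), Mmp12 (3.49 ± 0.64), Adamts14 (1.19 ± 0.22), Mmp11 (1.11 ± 0.18) and Adamtsl5 (0.91 ± 0.16) were higher in epididymal fat, and Adamts17 (-1.45 ± 0.30), Timp3 (-0.95 ± 0.15), Mmp15 (-0.92 ± 0.18) and Adamtsl4 (-0.69 ± 0.16) were lower.

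HFD reversed the order of the depots for Timp4 and Adamts5, and the interaction of diet and depot in WT mice passed for 14 of 43 members as more positive in epididymal fat and 8 as more negative. Of all genes tested, 16.1% were higher and 17.3% lower (33.3% called), and the median log2 fold change was -0.18 over members and -0.07 over all genes. Without the chow libraries rich in mast cell transcript 6 were more positive and 8 more negative. Timp4 was 1.27 ± 0.27 higher in epididymal than subcutaneous fat on chow and -1.13 ± 0.28 on HFD (interaction -2.40 ± 0.39, adjusted p = 2.38e-06). Adamts5 was at 0.76 ± 0.21 on chow and -0.87 ± 0.22 on HFD (interaction -1.62 ± 0.30, adjusted p = 2.56e-05). Mmp3 was -4.92 ± 0.33 on chow and -1.16 ± 0.29 on HFD (interaction 3.76 ± 0.43, adjusted p = 5.05e-10), and Mmp2 was -1.44 ± 0.20 on chow and 0.15 ± 0.21 on HFD (interaction 1.59 ± 0.29, adjusted p = 1.84e-05). The interaction was 3.46 ± 0.67 for Timp1, -1.14 ± 0.21 for Timp3 and 0.62 ± 0.24 for Timp2, and that of Timp1 was 1.11 (adjusted p = 0.109) without the subcutaneous libraries rich in mast cell transcript. It was also positive for Mmp27 (2.68 ± 0.56), Adamts14 (1.13 ± 0.30) and Mmp14 (0.97 ± 0.27), and negative for Mmp28 (-1.49 ± 0.28), Adamts1 (-1.17 ± 0.27) and Adamtsl4 (-0.97 ± 0.22). Which of the named members other than Timp1 kept their call without the libraries rich in mast cell transcript is not given here. The KO difference on HFD differed between depots for Timp4 (log2 fold change 1.60 ± 0.39, adjusted p = 0.00422), Mmp28 (log2 fold change 0.90 ± 0.28, adjusted p = 0.0253) and Mmp15 (log2 fold change 0.81 ± 0.26, adjusted p = 0.0265), all 3 more positive in epididymal fat, that is 3 of 43 members. The share of all genes called was 14.6%, with 7.76% higher and 6.87% lower, and the median log2 fold change was 0.05 over members and 0.02 over all genes. With the replicate number in the fit Timp4 was called, while Mmp28 (0.67, adjusted p = 0.112) and Mmp15 (0.69, adjusted p = 0.0506) were not, nor were they without the subcutaneous libraries with liver transcript. Timp1 (-0.54 ± 0.67), Timp2 (-0.04 ± 0.24) and Timp3 (0.54 ± 0.21) were not called.

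Some members share exon bases with a gene on the other strand, and the sources used here do not say whether counting used strand, so such reads could not be told apart. Timp4 shares 90 exon bases with Syn2, which had group means of 5.99 to 19.7 CPM, and Timp3 shares 1733 with Syn3 at 0.764 to 3.27 CPM, in each case below the level of the Timp gene. The partners of some other members were more abundant than the member: Adamts7 shares 122 bases with Tbc1d2b at 43.5 to 91.3 CPM, and Mmp11 shares 155 with Chchd10 at 11.1 to 56.9 CPM.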

How the data were processed

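The authors deposited 2 tables of estimated counts per gene, 1 per experiment, for 101 libraries; 2.94% of values were not whole, and they were rounded before testing. Per the labels' protocols, libraries were made from 500 ng of RNA by mRNA capture with 14 PCR cycles and read as pairs in a 76-cycle run; the genome build, per the submitters' processing notes, was mm10, and no source used here names the aligner or the counter. Entrez identifiers were joined to symbols, and 24375 of 24475 matched. The depots and experiments were fitted separately with edgeR 4.0.16 in R 4.3.3 (TMM scaling, filterByExpr with a minimum count of 10 and total of 15, robust quasi-likelihood F tests, Benjamini-Hochberg adjustment over all genes tested, threshold 0.05); comparisons between depots used both. CPM are counts scaled to a library total of 1000000, and levels per kb use the union of exons. The scripts were checked on simulated data. The members, lists and tests were chosen with earlier results of these data known. The text names the 4 Timp genes and up to 6 called members of each direction by smallest p (3 where none was called), up to 3 called genes of each direction from the wider lists where these are described, and gives library values for members called in at least 3 comparisons within a depot. Other members named were chosen after their values were seen, and some genes that the rule would name are not reported here. Alternatives covered RLE scaling, no filter, DESeq2 1.42.0, a replicate block, tissue covariates and libraries left out.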

Additional observations from a re-analysis of the deposited data

Results flagged for a closer look

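In 8 of 72 group values examined, 1 library lay farther from the rest of its group than Dixon's criterion allows at the 95% level. For independent, normally distributed values, chance alone gives such a value in about 1 of every 20 groups. The CPM were not transformed and the genes share libraries, so that rate need not hold here. Among epididymal libraries after mInhbe AAV, library 9 held 49.0 CPM of Mmp12, with 24.7 next, and 51.9 CPM of Timp1, with 12.2 next, and library 6 held 0.855 CPM of Mmp13, with 0.401 next. In KO epididymal fat on HFD, library 1 held 197 CPM of Mmp2, with 130.3 next, and 25.3 CPM of Mmp3, with 11.5 next. In the same group library 4 held 348 CPM of Timp4, with 217 next, and 196 CPM of Timp3, with 410.3 the next lowest. WT HFD epididymal library 5, which also carried liver transcript, held 76.9 CPM of Timp1, with 41.3 next.

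A difference of responses passed edgeR's quasi-likelihood test, after Benjamini-Hochberg adjustment over all genes, for 38 pairings of member and contrast, all on the log2 scale. For genotype by diet in subcutaneous fat these were -0.75 for Mmp11 and -1.10 for Adamts2. For genotype by diet in epididymal fat they were -0.62 for Mmp2, -1.37 for Mmp3, -1.96 for Mmp12, -2.53 for Mmp13, -0.78 for Mmp14, 1.19 for Mmp28, -0.81 for Adamts14, -1.60 for Timp1, 0.64 for Timp3 and 2.30 for Timp4. The response to mInhbe AAV differed between depots by 1.20 for Adamts17. The response to HFD in WT mice was more positive in epididymal fat by 1.59 for Mmp2, 3.76 for Mmp3, 2.40 for Mmp8, 0.76 for Mmp11, 2.53 for Mmp12, 2.02 for Mmp13, 0.97 for Mmp14, 1.68 for Mmp25, 2.68 for Mmp27, 1.13 for Adamts14, 1.06 for Adamts15, 0.59 for Adamtsl5, 3.46 for Timp1 and 0.62 for Timp2. It was more negative there, by -1.49 for Mmp28, -1.17 for Adamts1, -1.62 for Adamts5, -0.74 for Adamts7, -0.82 for Adamts9, -0.97 for Adamtsl4, -1.14 for Timp3 and -2.40 for Timp4. Fewer members were more positive without the chow libraries rich in mast cell transcript, and Timp1 was not called then. The KO difference on HFD was more positive in epididymal fat by 0.81 for Mmp15, 0.90 for Mmp28 and 1.60 for Timp4.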

How the results depend on the processing

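Of 130 alternative counts of called members, 108 stayed within 1.5 times the reported count; of 1349 alternative values for named genes, 1256 kept their direction and side of the threshold, 56 lost the call, 14 gained one and 23 changed sign. The epididymal counts for KO against WT on HFD, HFD against chow in WT mice and their interaction stayed within 1.5 times under all alternatives run. Leaving out the libraries low in Adamts12, those rich in mast cell transcript, the epididymal libraries with liver transcript and mInhbe library 9 were alternatives chosen after the data were seen; the cause of each change was not tested, save that dropping libraries leaves fewer samples. The KO against WT count on chow without WT HFD subcutaneous libraries 3 and 6 was 1 member (Mmp28). Without those 2, the counts were 17 for KO against WT on HFD, 16 for HFD in KO and 4 for the subcutaneous interaction. Without the WT subcutaneous libraries with little lymph node transcript, they were 6, 11 and 1, and 6 for the KO difference by depot. With the lymph node covariate, 2 members were called for mInhbe AAV and 12 for HFD in KO. DESeq2 called 13 for HFD in KO, and 12 were called without the subcutaneous libraries with liver transcript. Without the chow libraries rich in mast cell transcript, 1 passed for the subcutaneous interaction and 14 for WT diet by depot. For mInhbe AAV in epididymal fat, 1 passed without the filter and 4 with DESeq2. There 1 passed without GFP libraries 7 and 8, and 4 with the epididymis covariate. For AAV by depot, 0 passed without GFP subcutaneous library 2 and epididymal libraries 7 and 8. The 1 member that DESeq2 called for AAV by depot was another one.

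By the criterion of a correlation over 0.1 in every pair, same-numbered libraries did not deviate together in any set of groups. The numbers were therefore not taken as pairs. That criterion is strict and cannot exclude pairing of some libraries. Between the depots of a group, the best match of a library had its own number in 4 of 8 KO HFD and 4 of 7 KO chow pairs. The counts were 3 of 10 for GFP, 2 of 8 for WT chow, 1 of 7 for WT HFD and 0 of 10 for mInhbe. With the replicate block, 1 member was called for mInhbe AAV in epididymal fat, 0 for AAV by depot and 1 for the KO difference by depot; all other counts stayed within 1.5 times.

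All changes of sign were in Timp genes that were not called in the reported fit. With the lymph node covariate, Timp2 after mInhbe AAV in subcutaneous fat was 0.0165, Timp3 was 0.17 for KO on HFD, -0.15 and -0.0215 for HFD in WT and KO and 0.12 for the interaction, and Timp4 was 0.06 for HFD in WT. Without the libraries with little lymph node transcript, Timp3 was 0.24 for KO on HFD, -0.11 for HFD in WT and 0.16 for the interaction, Timp4 was 0.13 and Timp1 -0.45 for HFD in WT. Without the libraries rich in mast cell transcript, Timp3 was -0.18 for KO on chow, -0.00325 for HFD in WT and 0.12 for the interaction, and Timp1 was 0.12, -1.59 for KO on chow and the interaction and 1.48 (adjusted p = 0.00273) between depots on chow. With the block, Timp4 was 0.0017 for HFD in WT subcutaneous fat and Timp1 0.18 between depots on chow. Timp2 was -0.0189 after mInhbe AAV without GFP epididymal libraries 7 and 8, -0.000398 for HFD in KO with the epididymis covariate, and 0.0104 and 0.0331 for the KO difference by depot without the subcutaneous libraries with liver transcript or low Adamts12. Depth limits the members under about 1 CPM, where 3 counts come to 0.149 to 0.231 CPM.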
